A study of Homo sapiens with 4 samples.

Results

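UBD, OR2I1P and GABBR1 are overlapping genes at the telomeric edge of the major histocompatibility complex on the short arm of chromosome 6. They were selected by gene symbol and make up 3 of the 56655 rows of the count tables, and their choice rested on the contrast described here, because reads of overlapping genes may be shared and their rows had differed between the groups. RNA-seq was performed in OVCAR5 cells, an established ovarian cancer cell line labelled high grade serous and derived from ascites, grown in RPMI with fetal bovine serum and used at passage 4 to 6. Cells were stably transduced with lentivirus carrying a control short hairpin RNA (shCtrl, n = 2 libraries) or a hairpin against the forkhead transcription factor gene FOXK2 (shFOXK2, n = 2 libraries), and the series describes the libraries of each group as biological duplicates. The labels name only the target, and the captions of the study give the hairpin of these libraries as shFOXK2-2. The comparison is therefore of 1 FOXK2 hairpin in 1 line. FOXK2 itself had 1796 and 1499 counts in shCtrl against 1086 and 1084 in shFOXK2, a log2 fold change of −0.36 (SE 0.25) that did not pass the edgeR quasi-likelihood test (adjusted P = 0.257). By other assays, the study reported lower FOXK2 mRNA (qRT-PCR) and protein (western blot) in OVCAR5 cells carrying hairpins against FOXK2.

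UBD encodes FAT10, a protein made of a pair of ubiquitin-like domains that is attached to other proteins and delivers them to the proteasome. It is known as a gene induced by tumor necrosis factor and interferon gamma, and it is carried within the major histocompatibility complex region. OR2I1P is named as an olfactory receptor pseudogene, one of the large receptor family of the nasal epithelium. GABBR1 encodes a subunit of the GABA-B receptor, the G protein-coupled receptor for the transmitter GABA, which works as a heterodimer with the product of GABBR2.

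In the GENCODE v44 annotation of hg38, UBD (ENSG00000213886.4) was a protein-coding gene on the minus strand of chromosome 6, from 29555515 to 29559732. It had 1 transcript of 2 exons. Exon 1 ran from 29559675 to 29559732 (58 bases), and exon 2 ran from 29555515 to 29556350 (836 bases). OR2I1P (ENSG00000237988.6) lay on the plus strand from 29550407 to 29557773 with 3 transcripts, and both GENCODE v44 and RefSeq classed it as protein-coding, the latter under the symbol OR2I1. Its canonical exon 2, from 29553225 to 29557773, covered all 836 bases of UBD exon 2 on the opposite strand. GABBR1 (ENSG00000204681.11) lay on the minus strand from 29555629 to 29633976 with 20 transcripts. Its overlap with UBD arose from 1 transcript that is not the canonical one, whose last exon (29555629 to 29556350) shared all of its 722 bases with UBD exon 2. RefSeq placed GABBR1 from 29602238 to 29633183, which does not reach UBD.

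**Figure D1:**
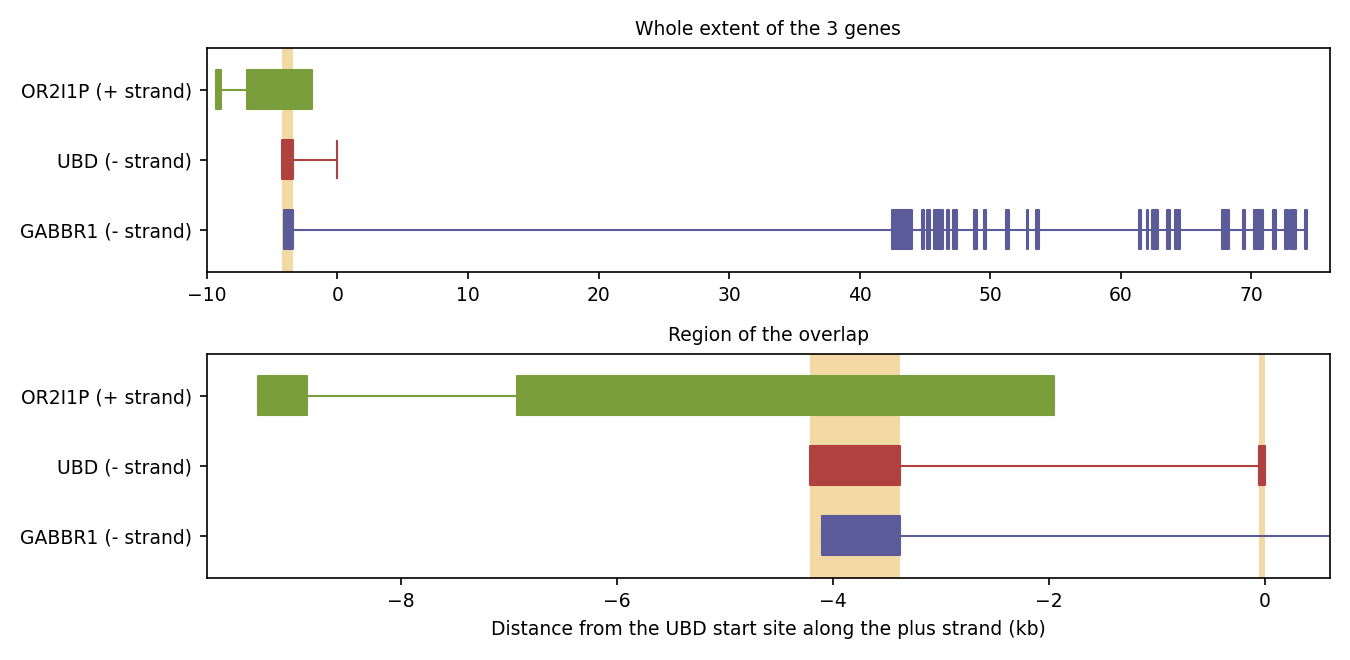
Exons (boxes) of OR2I1P, UBD and GABBR1 by distance in kb from the UBD start site, measured along the plus strand, with the strand of each gene given beside its name. The upper panel spans all 3 genes and the lower panel enlarges the overlap, and the shaded bands are the 2 UBD exons: the larger one lies wholly inside an OR2I1P exon and the smaller one touches no exon of the other genes.

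Of 894 exon bases of UBD, 172 were free of exons of other genes on the same strand and 58 were free on both strands, and these 58 were exon 1. The coding bases of that exon are shown because they are the stretch of the UBD message that no exon of the other genes covered. They lie at chr6:29559675-29559701 of hg38 on the minus strand and are written 5′ to 3′ with the start codon in capitals:
UBD exon 1 coding bases: ATGgctcccaatgcttcctgcctctgt

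The RefSeq promoters of UBD and GABBR1 (GRCh38.p14, 250 bases before the start) are shown because counts of these minus-strand genes differed in opposite directions. OR2I1P had no entry. The UBD row held too few counts for a fitted fold change. The UBD window ends at the start of its canonical transcript, whereas the GABBR1 window ends at the start of a shorter transcript (29628013), which lies 5170 bases inside the gene from the canonical start at 29633183. Capitals mark matches of a motif search on both strands, for the FOXK2 motif TGTTTAC, the NF-kB motif, the interferon-stimulated response element (GAAA, any 2 bases, GAAA), the interferon gamma activated site TTCNNNGAA and the TATA box TATANAA. The TATA box was added with the UBD promoter in view.
UBD, chr6:29559733-29559982, minus strand: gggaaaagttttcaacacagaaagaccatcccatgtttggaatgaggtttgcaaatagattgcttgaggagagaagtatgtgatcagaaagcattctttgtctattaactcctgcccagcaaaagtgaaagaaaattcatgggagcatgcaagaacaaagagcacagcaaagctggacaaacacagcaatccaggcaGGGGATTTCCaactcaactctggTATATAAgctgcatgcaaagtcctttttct
GABBR1, chr6:29628014-29628263, minus strand: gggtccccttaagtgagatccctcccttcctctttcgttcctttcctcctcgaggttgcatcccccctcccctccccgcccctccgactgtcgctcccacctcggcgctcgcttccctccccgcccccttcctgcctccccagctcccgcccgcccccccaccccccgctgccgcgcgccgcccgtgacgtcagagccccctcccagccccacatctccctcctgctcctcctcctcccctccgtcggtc

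The UBD promoter held 1 NF-kB match, GGGGATTTCC, which began 53 bases before the start, and 1 TATA box match, TATATAA, which began 30 bases before it. Of 35116 promoters in the RefSeq table, 5.21% held the NF-kB motif and 8.42% the TATA box. Neither promoter held a FOXK2 motif, which was in 2.98% of promoters, or an interferon-stimulated response element (3.02%) or an interferon gamma activated site (6.57%). This GABBR1 promoter held none of the 5 motifs. GC content was 41.6% in the UBD promoter and 72.4% in that of GABBR1, against a median of 58.0% over all promoters. These matches describe the letters in the windows and were not tested for binding.

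OR2I1P carried most of the counts of the locus in shCtrl and almost none in shFOXK2. It had 1622 and 1377 counts in the shCtrl libraries and 1 count in each shFOXK2 library. Both shFOXK2 libraries were under the floor of 3 counts, and the groups did not overlap. On the CPM scale, on which counts are brought to a common library total and adjusted by the trimmed mean of M values (TMM), OR2I1P averaged 79.2 ± 9.25 in shCtrl and 0.0626 ± 0.0109 in shFOXK2 (SD, n = 2 libraries). Its fitted log2 fold change was −10.17 (SE 0.47). Pooled over the libraries of a group, 2999 against 2 raw counts gave a ratio per library total of 1239, with a 95% counting interval of 343 to 10230. The size of the fold rests on those 2 counts.

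The UBD row held few counts in any library. There were 3 and 6 counts in shCtrl and 0 in each shFOXK2 library, or 0.254 ± 0.169 CPM (SD, n = 2 libraries) and 0 CPM. The groups did not overlap, but 1 shCtrl library was at the floor of 3 counts and the gene did not pass the expression filter, so it has no fitted fold change here. Pooled, there were 9 counts against 0, and the 95% counting interval of the ratio had a lower bound of 1.63-fold lower in shFOXK2. This bound rests on shCtrl replicate 2, which held 6 of the 9 counts.

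GABBR1 differed in the other direction. It had 345 and 263 counts in shCtrl against 582 and 701 in shFOXK2, and the lower shFOXK2 library lay above the higher shCtrl library. Its level was 15.9 ± 0.65 CPM in shCtrl and 39.7 ± 1.7 CPM in shFOXK2 (SD, n = 2 libraries), a 2.49-fold difference and a log2 fold change of 1.32 (SE 0.26). From pooled raw counts, the ratio per library total was 2.55 with a 95% counting interval of 2.32 to 2.82. Of all genes with a fit, 75.4% had groups that did not overlap, 39.2% with shFOXK2 higher and 36.2% with shFOXK2 lower. Since the genes were chosen from this contrast, no P value is given for them.

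**Figure D2:**
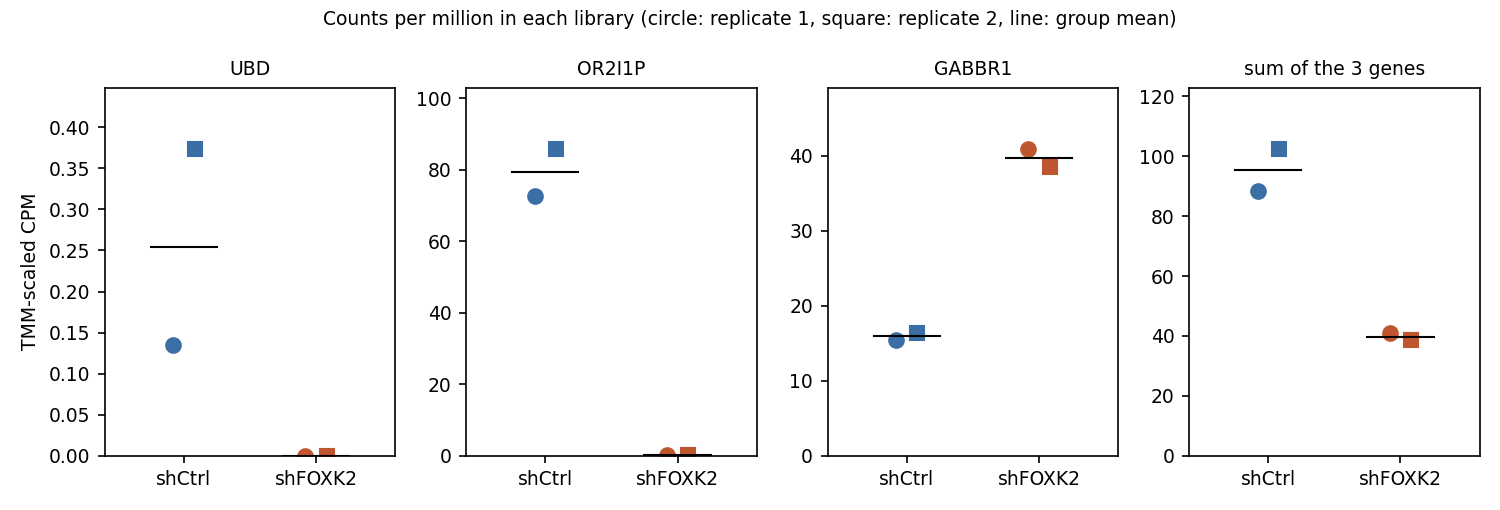
TMM-scaled CPM of UBD, OR2I1P, GABBR1 and their sum in each library, with replicate 1 as a circle, replicate 2 as a square and the group mean as a line; each panel has its own axis from 0. UBD, OR2I1P and the sum lie higher in both shCtrl libraries (blue), while GABBR1 lies higher in both shFOXK2 libraries (orange).

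The 3 rows were then added, because a sum does not depend on how the counted reads were divided among them. Reads discarded for overlapping exons of more than 1 gene enter none of the rows and are missing from the sum. The sum was 1970 and 1646 counts in shCtrl against 583 and 702 in shFOXK2. It was 95.4 ± 10.1 CPM in shCtrl and 39.8 ± 1.71 CPM in shFOXK2 (SD, n = 2 libraries), a fold of 0.417 and a log2 fold change of −1.26 (SE 0.25). The 3 rows together therefore had fewer counts in shFOXK2, and almost all that remained there was GABBR1. OR2I1P made up 82.3% (95% Wilson interval 80.6 to 84) and 83.7% (81.8 to 85.4) of the 3 rows in the shCtrl libraries, against 0.171% and 0.142% in the shFOXK2 libraries. Of the UBD and OR2I1P counts alone, OR2I1P held 99.8% (99.5 to 99.9) and 99.6% (99.1 to 99.8) in shCtrl. In shFOXK2 only 1 such count was left in each library, so the share there carries no information.

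How far each row could count its own gene was worked out from the exon models. The reads were 50 bases long, and HTSeq in its default mode discards a read that overlaps exons of more than 1 gene. Counted without regard to strand, 9 of the 845 read positions along the UBD transcript would enter the UBD row (1.07%) and 836 would be ambiguous (98.9%). For OR2I1P, 4581 of 5466 positions (83.8%) would enter its own row, and for GABBR1 8026 of 8748 (91.7%). Counted on the sense strand, 74 UBD positions would enter the UBD row and 771 would be ambiguous with GABBR1. Counted on the opposite strand, 836 of the UBD positions would enter the OR2I1P row. The strand setting and the annotation used for counting are not given in the sources used here, and the library kit is not labelled as directional. The annotation was not GENCODE v44, since 18329 symbols in the tables have the form of clone names and none in v44 do.

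To place the genes on 1 scale, counts were brought to a common library total without TMM (plain CPM) and divided by these positions, and the resulting density is given in CPM per 1000 assignable positions, counted without strand. In shCtrl, OR2I1P had densities of 16.1 (95% Poisson interval 15.3 to 16.9) and 17.9 (17 to 18.9). UBD had densities of 15.2 (3.13 to 44.4) and 39.7 (14.6 to 86.3), and on this strand-blind scale its interval held or overlapped that of OR2I1P in each library. With the positions assignable on the sense strand (74 for UBD and 5466 for OR2I1P), a choice added after seeing the data, UBD had densities of 1.85 (0.381 to 5.4) and 4.83 (1.77 to 10.5). OR2I1P then had 13.5 (12.9 to 14.2) and 15 (14.2 to 15.8), above the UBD intervals in both libraries. On the opposite strand no UBD position would enter the UBD row. In shFOXK2, where UBD had 0 counts, the strand-blind intervals reached up to 28.7 and 23.1, above the lower of the shCtrl densities, so that single libraries did not resolve the UBD difference, which rests on the pooled counts. OR2I1P was at 0.0153 and 0.0123 in shFOXK2. GABBR1 was at 1.96 and 1.95 in shCtrl and at 5.08 and 4.92 in shFOXK2. On strand-blind and on sense-strand positions, the level of OR2I1P thus lay above that of GABBR1 in both shCtrl libraries and below it in both shFOXK2 libraries. On the opposite strand neither gene had a position that would enter its own row, so the 2 cannot be ranked there. The place of UBD relative to OR2I1P differed between strand-blind and sense-strand positions. The strand setting is not known. The positions are those of GENCODE v44, which is not the annotation of the tables, and these intervals cover counting error only. The 9 strand-blind UBD positions all lie within exon 1, at the start of the transcript. The scale takes reads to fall evenly along a transcript, which was not tested.

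**Figure D3:**
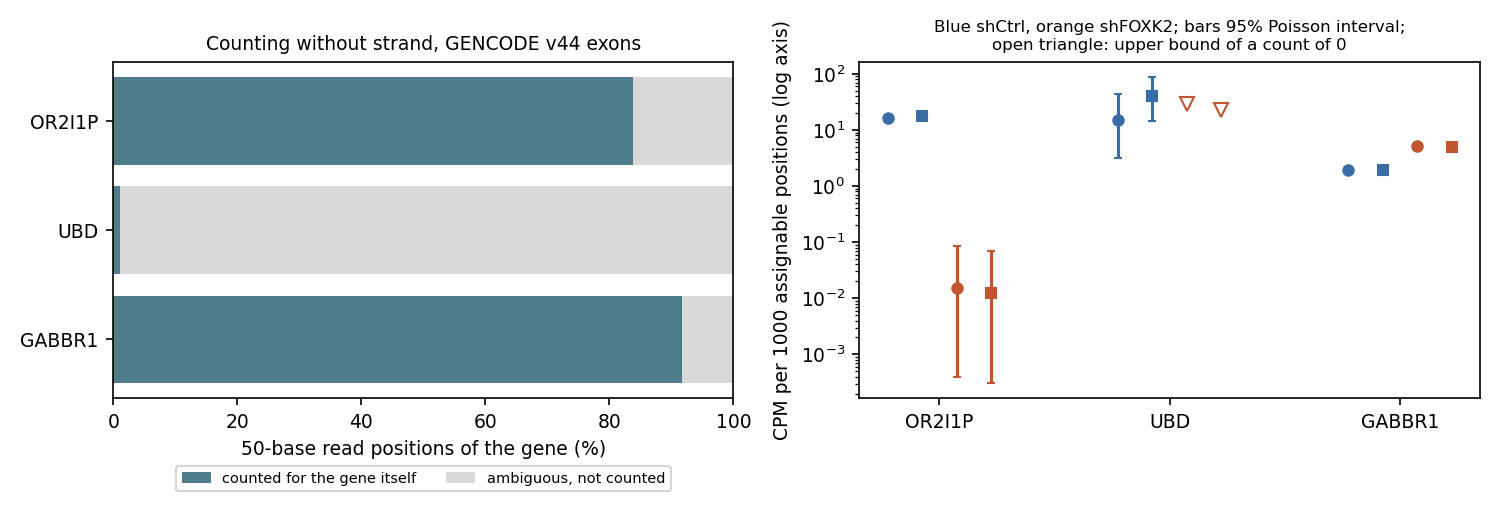
Left, percent of 50-base read positions of each gene that would be counted for the gene itself or be ambiguous when strand is ignored, with GENCODE v44 exons. Right, CPM per 1000 assignable positions on a log axis with 95% Poisson intervals, in shCtrl (blue) and shFOXK2 (orange); UBD in shFOXK2 is shown by the upper bound of a count of 0. UBD keeps 1.07% of its positions, and its shCtrl intervals overlap those of OR2I1P on this strand-blind scale.

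The strand handling was also examined in the tables. Among 174 genes whose exons are wholly covered by exons on the opposite strand, 9 (5.17%, 95% Wilson interval 2.75 to 9.54) had at least 10 counts summed over the libraries. The share was 5.93% of 523 genes covered by exons on their own strand and 39.3% of 28111 genes that share no exon. Among protein-coding genes these shares were 15.4% (2 of 13), 4.88% (2 of 41) and 70% of 13347. The interval of the share for opposite-strand cover held the share for same-strand cover, and most of the covered genes are not protein-coding. Which gene the OR2I1P reads came from cannot be told apart with gene counts, and in bulk RNA fewer expressing cells and less RNA per cell cannot be told apart either.

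Other olfactory receptor rows were low in all libraries. Of 840 rows named as olfactory receptors, 41 and 23 had any count in shCtrl and 66 and 149 in shFOXK2. OR2I1P ranked first in both shCtrl libraries, with 91.6% of all olfactory receptor counts in each. The next row, OR7E38P, had 41 and 52 counts. Without OR2I1P the family totalled 148 and 127 counts in shCtrl against 226 and 530 in shFOXK2, so that the remaining rows together had more counts in both shFOXK2 libraries. Over all genes, too, more rows had any count in shFOXK2, 26780 and 30717 against 25682 and 23724 in shCtrl. A rise in detected rows was thus seen over all genes as well, but it was smaller there in proportion than in this family. Its cause was not tested.

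Neighbouring genes within 500 kb of UBD were next considered. Of 63 rows, 26 had 0 counts in all 4 libraries and 8 passed the expression filter. Among these 8, 3 were lower in shFOXK2 and 0 were higher (edgeR quasi-likelihood test, adjusted P under 0.05), beside 22.7% lower, 25.7% higher and 48.4% called in either direction among all 16417 genes tested. The 3 were HLA class I genes or pseudogenes that lie beyond GABBR1. HLA-F, a nonclassical class I gene 88799 bases beyond GABBR1, had 307 and 225 counts in shCtrl against 119 and 98 in shFOXK2 (log2 fold change −1.02, SE 0.32, adjusted P = 0.0183). HLA-G and the pseudogene HLA-H had log2 fold changes of −0.97 (SE 0.37, adjusted P = 0.0449) and −1.08 (SE 0.36, adjusted P = 0.0242). The calls of HLA-F, HLA-G and HLA-H were each lost without shFOXK2 replicate 2, where their log2 fold changes were −0.76, −0.56 and −0.69, which left 0 calls among the 8 neighbours by edgeR (1 at an unadjusted P under 0.05), while the DESeq2 Wald test on all libraries called 2. Without shCtrl replicate 2 HLA-G and HLA-H were also lost (adjusted P = 0.0651 and 0.0542). Class I genes are near-identical in stretches, so their counts are uncertain.

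Closer to the 3 genes the rows were nearly silent. UBDP1, a pseudogene of UBD, had 0 counts in all 4 libraries. OR2H2, an olfactory receptor gene inside the span of GABBR1, had 1 count in each shCtrl library and 3 and 5 counts in shFOXK2, and SUMO2P1, a pseudogene just beyond GABBR1, had 3 and 6 counts in shCtrl against 1 and 7 in shFOXK2. MOG, which encodes a myelin glycoprotein, had 0, 1, 1 and 3 counts, and the zinc finger gene ZFP57 had 4, 2, 1 and 0. HLA-F-AS1, the antisense transcript of HLA-F, had 20 and 6 counts in shCtrl against 22 and 21 in shFOXK2 (log2 fold change 1.01, SE 0.50, adjusted P = 0.108). The remaining rows within 100 kb had at most 3 counts in any library.

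Genes whose products make, bind or degrade FAT10 conjugates were examined as a list of 13, of which 12 passed the filter. Of these 2 were higher in shFOXK2, 7 were lower and 3 did not pass the test, so that 75% were called, beside 48.4% of all tested genes (25.7% higher, 22.7% lower). The median log2 fold change was −0.61 beside 0.04 over all tested genes. With an offset for the share of A bases in the transcript, the list median was −0.27. The same offset raised the log2 fold changes of the tested genes it covered by a median of 0.26, so −0.27 is not to be set against 0.04. It also ended the calls of UBE2Z, UBA1 and HDAC6. UBA6, the enzyme that activates FAT10, rose from 22.6 ± 14.5 to 57 ± 3.33 CPM (SD, n = 2 libraries) (log2 fold change 1.33, SE 0.37, adjusted P = 0.00904). Its shCtrl counts of 733 and 199 differed widely, and without shCtrl replicate 2 the log2 fold change was 0.72 and the call was lost (adjusted P = 0.0545). UBE2Z, which encodes the conjugating enzyme USE1, fell by 0.59 on the log2 scale (SE 0.23, adjusted P = 0.049), a call that was lost in 7 of the alternatives, among them a fit with the replicate number as a block. UBA1, the main ubiquitin-activating enzyme, fell by 0.66 (adjusted P = 0.0337) and was likewise lost with the block. Both calls were also lost without shCtrl replicate 2, shFOXK2 replicate 1 or shFOXK2 replicate 2, with adjusted P from 0.0672 to 0.225 for UBE2Z and from 0.0693 to 0.128 for UBA1.

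The receptors and partners of FAT10 followed. NUB1, which speeds the degradation of FAT10, had 1690 and 1056 counts in shCtrl against 479 and 739 in shFOXK2 (log2 fold change −0.93, SE 0.25, adjusted P = 0.0082), and its call was lost without shFOXK2 replicate 1 (adjusted P = 0.0603). VCP, the segregase p97, fell by 1.31 on the log2 scale (SE 0.24, adjusted P = 0.000588), and SQSTM1, the autophagy receptor p62, fell by 1.69 (SE 0.29, adjusted P = 0.000394). HDAC6, a deacetylase that carries ubiquitin-like cargo to aggresomes, fell by 0.64 (adjusted P = 0.0483). Its call was lost with scaling by library size alone, with 10 counts required in every library, with the A-base offset and under the block. The call was also lost without shCtrl replicate 2, shFOXK2 replicate 1 or shFOXK2 replicate 2. MAD2L1, the spindle checkpoint protein that binds FAT10, rose by 1.45 on the log2 scale (SE 0.27, adjusted P = 0.000724). PSMD4, a ubiquitin receptor of the proteasome, and OTUB1, a deubiquitinase, did not pass the test, with log2 fold changes of −0.02 and −0.12. AIPL1 had 0 counts in shCtrl against 0 and 1 in shFOXK2. With the replicate number as a block, 6 of the 12 tested passed, 2 higher and 4 lower, beside 7270 of all 16417 tested genes. The list thus stood closer to all genes there than in the chosen fit. Fewer of the list also passed without shCtrl replicate 2 or without shFOXK2 replicate 1, a share close to that of all genes. The list median was −0.56 and −0.73 in those fits.

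The cytokine routes known to induce UBD were described by 20 genes, 19 of them with a fit. None was higher and 13 were lower in shFOXK2 (edgeR), or 68.4% called, beside 48.4% of all tested genes. The median log2 fold change was −1.06 beside 0.04 over all tested genes. TNF had 58 and 36 counts in shCtrl and 0 in each shFOXK2 library, which made it at least 25.9-fold lower with the floor of 3 counts taken over the group, and the list median was the same with TNF at that bound. IL6, an inflammatory cytokine downstream of NF-kB, had 491 and 368 counts in shCtrl against 6 and 0 in shFOXK2. NFKBIA, which encodes the NF-kB inhibitor IκBα and is itself a target of NF-kB, fell by 2.70 on the log2 scale (SE 0.27, adjusted P = 7.58e-06). The NF-kB subunits NFKB1 and RELA were lower, with log2 fold changes of −1.14 and −1.06 (adjusted P = 0.00177 and 0.00479), and the call of RELA was lost without shFOXK2 replicate 2 (adjusted P = 0.0533). TNFRSF1A, the main TNF receptor, had a log2 fold change of −0.49 that did not pass the test (adjusted P = 0.16), but it passed without shFOXK2 replicate 1 (log2 fold change −0.96, adjusted P = 0.0142).

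On the interferon side the ligand was not seen, as IFNG had 0, 0, 1 and 0 counts. The receptor chains IFNGR1 and IFNGR2 were lower, with log2 fold changes of −1.04 and −1.78 (adjusted P = 0.00714 and 8.33e-05). JAK1, the kinase bound to the receptor, fell by 1.63 (SE 0.24, adjusted P = 0.000146), and the transcription factor IRF1 fell by 1.06 (adjusted P = 0.00334). JAK2 had a log2 fold change of 0.47 (adjusted P = 0.366). Its shCtrl counts of 215 and 55 differed widely, and it was 1.38 without shCtrl replicate 1 (adjusted P = 0.00888) and −0.15 without shCtrl replicate 2 (adjusted P = 0.783).

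**Figure D4:**
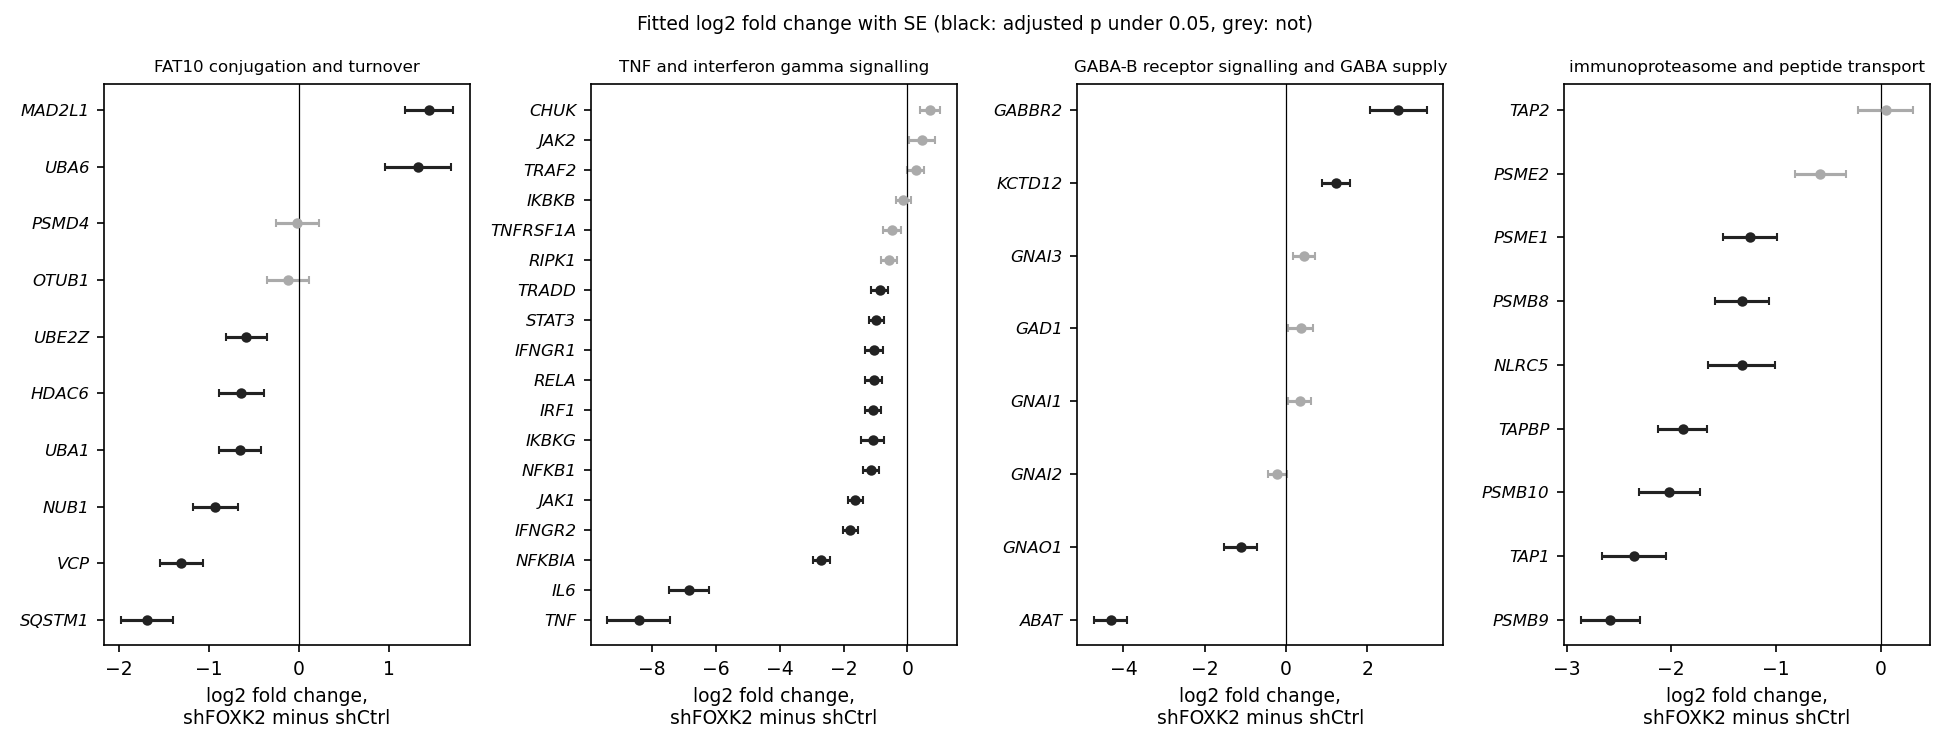
Fitted log2 fold changes (shFOXK2 minus shCtrl) with SE for tested genes of 4 lists, black where the adjusted P was under 0.05 and grey where it was not; each panel has its own axis. The TNF and interferon gamma panel and the immunoproteasome panel show called genes only below 0, and the value of TNF is a fit against 0 counts that depends on the prior count.

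The immunoproteasome and peptide transport genes, which are induced by interferon and several of which lie in the same complex as UBD, were a list of 9, all with a fit. Of these 7 were lower and 0 higher, or 77.8% called beside 48.4% of all tested genes, with a median log2 fold change of −1.33 beside 0.04. The largest falls among them were of PSMB9, a catalytic subunit (log2 fold change −2.58, SE 0.28, adjusted P = 1.72e-05), and of TAP1, a chain of the peptide transporter (log2 fold change −2.36, SE 0.31, adjusted P = 5.65e-05). TAP2, the other chain, had a log2 fold change of 0.05 (adjusted P = 0.895). PSME2, a proteasome activator subunit, had −0.58 (adjusted P = 0.0655). It passed in some other fits, among them those with no expression filter, with DESeq2 and without shCtrl replicate 1 (log2 fold change −0.77).

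The family of FAT10, ubiquitin and the ubiquitin-like modifiers, held members of both directions. Of 24 tested members 2 were higher, 10 lower and 12 not called. The share called, 50%, was close to the 48.4% of all tested genes. The median log2 fold change was −0.36 beside 0.04 over all tested genes, and −0.15 when 10 counts were required in every library. GABARAPL1, an autophagy modifier of the ATG8 family, fell by 4.39 on the log2 scale (SE 0.37, adjusted P = 2.73e-06), and OASL, an interferon-induced protein with ubiquitin-like domains, fell by 3.06 (adjusted P = 3.18e-05). ISG15, the other interferon-induced modifier, had 4177 and 4282 counts in shCtrl against 759 and 1485 in shFOXK2 (log2 fold change −1.75, adjusted P = 0.000254). SUMO4 had 1 and 0 counts in shCtrl against 21 and 55 in shFOXK2 (adjusted P = 7.27e-05), and ATG12, which joins ATG5 in autophagy, rose by 1.03 (adjusted P = 0.00661), a call that was lost with an offset for the share of A bases in the transcript and without shCtrl replicate 2 (adjusted P = 0.0556) or shFOXK2 replicate 2 (adjusted P = 0.052). The ribosomal fusion gene RPS27A, which also encodes ubiquitin, had a log2 fold change of 0.19 and was not called.

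The GABA-B list of 18 genes had 8 with a fit, of which 2 were higher, 2 lower and 4 not called. The share called, 50%, was near the 48.4% of all tested genes. The median log2 fold change was 0.35, and it was 0.58 without shCtrl replicate 1 and −0.01 without shCtrl replicate 2. GABBR2, the partner subunit of GABBR1, had 6 and 4 counts in shCtrl against 43 and 13 in shFOXK2 (log2 fold change 2.77, SE 0.69, adjusted P = 0.00492). Without shFOXK2 replicate 1 its log2 fold change was 1.41 and its call was lost (adjusted P = 0.152). KCTD12, an auxiliary receptor subunit, rose by 1.24 on the log2 scale (SE 0.34, adjusted P = 0.00896), a call lost without shCtrl replicate 2 (log2 fold change 0.80, adjusted P = 0.0533). The inhibitory G protein genes GNAI1, GNAI2 and GNAI3 were not called, with log2 fold changes of 0.34, −0.21 and 0.44, although GNAI1 and GNAI3 passed without shCtrl replicate 1 (adjusted P = 0.0473 and 0.0275). GNAO1 fell by 1.12 (adjusted P = 0.0348), a call that was lost with the replicate block, with DESeq2, and without either shCtrl library or shFOXK2 replicate 2 (adjusted P from 0.0592 to 0.186).

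Among the genes of GABA supply, ABAT, the transaminase that breaks GABA down, had 587 and 408 counts in shCtrl against 10 and 33 in shFOXK2 (log2 fold change −4.32, SE 0.41, adjusted P = 5.77e-06). GAD1, which makes GABA, had a log2 fold change of 0.36 (adjusted P = 0.344). The potassium channel genes through which the receptor acts in neurons were close to silent, with at most 8 counts for KCNJ3, 6 for KCNJ5, 4 for KCNJ6 and 2 for KCNJ9. The receptor subunits KCTD16 and KCTD8 had at most 4 and 0 counts. GAD2 had at most 1 count, the transporter gene SLC6A13 had at most 5, and the transporter gene SLC32A1 had 0 in every library.

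The patterns most like those of the 3 genes over the 4 libraries were ranked by Euclidean distance between centred log2 CPM, among 9924 tested genes whose log2 CPM averaged at least 3 (9923 for GABBR1, itself one of them). Nearest to UBD were TMEM102, PCBP4, TMEM98, PLIN3 and ACOT8, at distances of 0.395 to 0.413, and since the UBD profile rests on 9 counts it depends on the prior count of 2. The same ranking for OR2I1P and GABBR1 was added after values had been seen. Nearest to OR2I1P were the serum amyloid gene SAA1 at 1.41, the chemokine gene CCL2 at 1.48, the complement gene C3 at 1.56, CXCL1 at 1.66 and CXCL8 at 2.31. These distances were larger than those named for UBD, so none of these genes was as close. The OR2I1P profile, with 1 count in each shFOXK2 library, also depends on the prior count. SAA1 had 11616 and 10198 counts in shCtrl against 17 and 66 in shFOXK2, and CCL2 had 3115 and 2382 against 9 and 16. Nearest to GABBR1 were RGL3, CDK11B, UTP11 and ORC1, at distances of 0.0435 to 0.0822. These distances describe 4 libraries in 2 groups and carry no test.

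Cell type markers were checked beside these results. Of all tested genes 48.4% were called, 25.7% higher and 22.7% lower, and each marker list had only 3 to 6 genes with a fit. Of 6 epithelial markers only CDH1, which encodes E-cadherin, was called, with 459 and 260 counts in shCtrl against 13 and 24 in shFOXK2, and the summed level of the list ran from 4074 to 5444 CPM in shCtrl and from 4082 to 5298 CPM in shFOXK2. Of the serous ovarian markers PAX8 was lower (log2 fold change −0.88, adjusted P = 0.0263), MUC16 was lower (−5.76, adjusted P = 2.45e-05), MSLN was higher (1.10, adjusted P = 0.0151), and WT1 and ESR1 had at most 2 and 3 counts. The calls of PAX8 and MSLN were lost without shCtrl replicate 2 (adjusted P = 0.0911 and 0.0708), and that of PAX8 without shFOXK2 replicate 2 (adjusted P = 0.113). Of 9 immune cell markers 3 had a fit, CD14, CD83 and LAMP3, and all 3 were lower in shFOXK2. UBD and OR2I1P had the same direction, as did many other tested genes. The summed level of the immune list was 54.5 to 62.3 CPM in shCtrl and 19.2 to 19.7 CPM in shFOXK2. The defining leukocyte, T cell and B cell markers PTPRC, CD3E and MS4A1 had 0 counts in both shCtrl libraries and at most 3 in shFOXK2. The other B cell marker, CD79A, had 4 and 2 counts in shCtrl against 6 and 6, the cytotoxic cell marker NKG7 had 3 and 1 against 4 and 4, and the myeloid marker LYZ had 14 and 4 against 0 and 2. Of 6 fibroblast and endothelial markers 3 had a fit and 2 were lower, PDGFRB and PECAM1, and the summed level was 24.5 to 27.4 CPM in shCtrl and 15.3 to 16.7 CPM in shFOXK2. COL1A1 had 324 and 215 counts in shCtrl against 226 and 229 in shFOXK2 and was not called (log2 fold change 0.03, adjusted P = 0.951), VWF had 7, 1, 0 and 7, and COL1A2 and DCN had 0 in both shCtrl libraries and at most 3 in shFOXK2. The part of these markers in the results was not tested.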

How the data were processed

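RNA-seq of polyadenylated RNA from OVCAR5 cells gave single-end reads of 50 bases. The authors aligned them to hg38 (STAR 2.5.2, as in the submitters' processing notes), counted them with HTSeq and deposited raw counts per gene symbol, 1 table for each library. Totals ran from 14284005 to 21950873 counts, so that 3 counts equalled 0.137 to 0.21 CPM (counts scaled to a common library total).

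The titles of the samples gave groups and replicate numbers. After filterByExpr and TMM scaling, groups were compared in R 4.3.3 with edgeR 4.0.16 (quasi-likelihood F test, 2-sided), with Benjamini-Hochberg adjustment over 16417 genes and a threshold of 0.05. Each SE was derived from the F statistic and the fold change. The test was also run on simulated data with 16417 genes, of which 200 were changed by 2 on the log2 scale. There 87.5% of the changed genes were recovered, and 4.37% of calls were false. The data themselves had 7940 called genes, many with smaller changes, so these rates need not hold for them.

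The genes and lists were chosen with earlier results of these data known, so the genes themselves carry no test. Named were the 3 genes, FOXK2, genes of the FAT10 and GABA-B lists with counts, in other lists the 2 called genes with the largest change in each direction and genes needed by role, the 5 nearest to UBD in pattern, and neighbours within 100 kb. A few genes that this rule or a list holds are counted but not reported here by name. Exons came from GENCODE v44, where 35754 of 56655 symbols (63.1%) were matched. Ratios of pooled counts have exact 95% intervals. Alternatives were other scalings and filters, DESeq2 1.42.0, leaving out each library, the replicate number as a block, an offset on transcript A content (lowess, span 0.2), and a crossed block, the last chosen after seeing the data.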

Additional observations from a re-analysis of the deposited data

How the results depend on the processing

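UBD had too few counts for a fitted fold change in the chosen fit. The log2 fold change of OR2I1P was −10.41 with DESeq2, −9.94 with an offset on A content and −9.95 with that offset and the replicate block, and ran from −10.35 to −10.03 when 1 library was left out, while requiring 10 counts in every library removed the gene. For GABBR1 it was 1.22 with no filter, 1.24 with DESeq2, 1.68 with the A-content offset and 1.68 with that offset and the block, and ran from 1.24 to 1.33 when 1 library was left out. The sum of the 3 genes ran from −1.40 to −1.22 when 1 library was left out, and the A-content offset was not run for it, since the sum has no single transcript. The cause of these differences was not tested. None of these values changed sign. The A-content offset covered 84.6% of the tested genes and raised their log2 fold changes by a median of 0.26. With it 6914 genes were called, 3447 higher and 3467 lower, against 4219 higher and 3721 lower without it.

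When 1 library was left out, called genes numbered from 5 to 9 in the FAT10 list, from 2 to 5 in the GABA-B list and from 0 to 3 among the neighbours. Fewer of all genes were also called in each of these fits than in the chosen fit. At the lower end of these ranges, the FAT10 share was close to that of all genes in the same fit. The GABA-B and neighbour shares there were below it. At the upper end, the FAT10 and GABA-B shares were above it and the neighbour share was not. The ranges thus do not show calls that are stable for these lists in particular. The A-content offset left 0 called neighbours by edgeR, 3 of them at an unadjusted P under 0.05. As a share of all 3 genes in place of UBD and OR2I1P, OR2I1P was 82.3% and 83.7% in the shCtrl libraries.

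Same-numbered libraries did not deviate together (correlation −0.113 over 16417 genes). The replicate block called 7270 genes, 7133 of them among the 7940, and the crossed pairing called 8350. With the block 6 FAT10 genes were called. With few counts in the UBD row, depth limits any statement on UBD itself.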
